A study of Mus musculus with 20 samples.

Results

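The genes of the CTLA-4 and PD-1 immune checkpoint axis were measured in mouse ovarian tumours under PARP inhibition, checkpoint blockade and VEGFA blockade. The axis was taken as 9 genes chosen by symbol: the T cell receptors Ctla4, Cd28, Icos and Pdcd1 and the ligands Cd80, Cd86, Icosl, Cd274 and Pdcd1lg2. All 9 were found, among 55406 genes in the count table and 22417 rows in the RPKM table, and all 9 passed the filter on low counts. Each tumour grew from luciferase-expressing ID8 Trp53-/-Brca1-/- cells, a derivative of a mouse ovarian cancer line that lacks both genes, injected into the abdominal cavity of female C57/BL6 mice, so the controls carried the same deletions. The animals' ages and the number of cell clones behind the line are not given in the sources used here. Total RNA of 20 frozen tumours, each titled as 1 mouse, was sequenced, and the cells are named here from the RNA of bulk tissue. There, fewer cells of a type and less RNA per cell cannot be told apart.

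The full combination group (n = 4) received the PARP inhibitor (PARPi) olaparib at 40 mg/kg/day by mouth, immune checkpoint blockade (ICB) with 100 µg of anti-CTLA-4 and 200 µg of anti-PD-L1 antibody, and 20 µg of anti-VEGFA antibody. The PARPi+anti-VEGFA group (n = 4) lacked the checkpoint antibodies, the PARPi+ICB group (n = 3) lacked anti-VEGFA, and the ICB (n = 3) and PARPi (n = 3) groups received those agents alone at the same amounts. The control group (n = 3) was untreated. The labels list no control antibody or vehicle, and no group received anti-VEGFA without PARPi.

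As background, CD28 gives a T cell the second signal it needs beside its antigen receptor when it meets CD80 or CD86 on an antigen-presenting cell. CTLA-4, which is abundant on regulatory T cells, binds the same ligands more tightly and removes them, while ICOS, a CD28 relative on activated T cells, binds ICOS ligand. PD-1 is an inhibitory receptor of activated and exhausted T cells, and its ligands PD-L1, made by tumour and myeloid cells and induced by interferon gamma, and PD-L2, made mainly by dendritic cells and macrophages, lie next to each other in the genome. The checkpoint antibodies of this study bind CTLA-4 and PD-L1 proteins and delete no gene, so the RNA gives no check of their delivery.

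In GENCODE M21 (GRCm38), Cd28, Ctla4 and Icos stand side by side on the plus strand of chromosome 1, at chr1:60716800-60773359, chr1:60887000-60915832 and chr1:60977927-61000320. Pdcd1 lies on the minus strand of the same chromosome at chr1:94038305-94052553. Cd86 (chr16:36603869-36666081, minus strand) and Cd80 (chr16:38455561-38496335, plus strand) share chromosome 16, and Icosl lies at chr10:78069302-78083913 on the plus strand. Cd274, the gene of PD-L1, and Pdcd1lg2, the gene of PD-L2, are plus-strand neighbours at chr19:29367455-29388095 and chr19:29410919-29471161. The spans cover exons, introns and UTRs. Pdcd1lg2 is overlapped on the other strand by the antisense gene A930007I19Rik, which had 40 to 74 counts per library against 38 to 310 counts of Pdcd1lg2. The strand setting of the counting is not given, so reads of this pair may not be separated. A930007I19Rik had 40 to 66 counts in the full combination and 52 to 63 in controls.

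The 250 bases before the RefSeq start (GRCm38.p6) are printed for 4 members. These are the PD-1 ligands, which are neighbours but changed by different amounts, and Ctla4 and Cd80, a receptor and ligand pair. The printed windows of Ctla4 and Cd80 lie inside the GENCODE spans given above, because their RefSeq starts lie further in than the GENCODE starts. RefSeq promoter entries were matched for 6 of the 9 members. Those of Pdcd1 and Icosl were searched but are not printed, and Cd28, Icos and Cd86 were not matched. Capitals mark matches to the letters searched on both strands: GGAAAA (a core of NFAT sites), TGANTCA (AP-1), TTCNNNGAA (GAS, the interferon gamma-activated element) and GAAA, 2 free bases and GAAA (ISRE, the interferon-stimulated element).
Ctla4, chr1:60908775-60909024, plus strand: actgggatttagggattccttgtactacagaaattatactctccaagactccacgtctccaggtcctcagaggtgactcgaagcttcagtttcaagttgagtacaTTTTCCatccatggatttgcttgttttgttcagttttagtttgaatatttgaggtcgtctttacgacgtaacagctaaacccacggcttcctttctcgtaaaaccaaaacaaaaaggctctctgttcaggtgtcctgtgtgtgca
Cd80, chr16:38458683-38458932, plus strand: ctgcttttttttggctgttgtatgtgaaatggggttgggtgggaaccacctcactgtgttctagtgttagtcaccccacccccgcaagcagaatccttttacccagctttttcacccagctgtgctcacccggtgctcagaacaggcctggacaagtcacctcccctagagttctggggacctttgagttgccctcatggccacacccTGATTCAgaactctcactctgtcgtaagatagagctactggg
Cd274, chr19:29367188-29367437, plus strand: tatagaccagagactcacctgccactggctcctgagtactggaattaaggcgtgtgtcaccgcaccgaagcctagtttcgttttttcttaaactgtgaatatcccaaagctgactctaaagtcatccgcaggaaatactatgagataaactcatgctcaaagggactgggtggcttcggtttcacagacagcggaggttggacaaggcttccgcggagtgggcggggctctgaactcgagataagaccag
Pdcd1lg2, chr19:29410669-29410918, plus strand: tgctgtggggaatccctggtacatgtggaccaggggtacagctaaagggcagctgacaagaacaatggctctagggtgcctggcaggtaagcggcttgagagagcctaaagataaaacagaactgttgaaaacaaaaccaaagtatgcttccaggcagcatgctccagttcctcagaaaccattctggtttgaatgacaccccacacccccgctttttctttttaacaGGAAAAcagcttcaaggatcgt
Counted from the start, Ctla4 held the NFAT letters on the reverse strand at -145 to -140, Pdcd1lg2 held them forward at -22 to -17, and Cd80 held the AP-1 letters at -42 to -36. Neither GAS nor ISRE letters occurred in these windows of the 6 members, and Cd274, Pdcd1 and Icosl held no match. Among 32851 mouse promoters of the same length, 20.4% held the NFAT letters, 6.75% AP-1, 7.02% GAS and 2.98% ISRE, so the matches are common and describe sequence alone.

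Libraries held 26.9 to 34.7 M counts, with overlapping ranges between groups. Levels are counts scaled to a common depth (CPM) of the effective library size, a fold change is on the log2 scale with its SE, and a gene is called at an adjusted p under 0.05 over the 18144 genes tested. The cell types named by the labels had RNA: the 7 epithelial genes (keratins, Msln, Wt1 and Upk3b) summed to 1981 to 2253 CPM in the full combination and 2426 to 2811 CPM in controls, and 5 of 7 fell in each of the 3 combination groups. Of all 18144 genes, 2090 were called lower in the full combination, 1416 with PARPi+anti-VEGFA and 1183 with PARPi+ICB. Pancreatic acinar RNA stood out in 4 libraries, ICB replicate 3, PARPi+anti-VEGFA replicates 1 and 4 and full combination replicate 2. A trio of RNAs (Rn7sk, Lars2 and Mir6236) was taken as a possible sign of library quality and is called the quality trio below. Whether it tracks quality or responds to treatment was not tested. It summed to 55.5 to 153 CPM in the full combination, 46.5 to 62.3 with PARPi+anti-VEGFA and 61.6 to 82.0 with PARPi+ICB. With ICB it summed to 60.6 to 79.7 and with PARPi to 67.1 to 127, against 150 to 154 CPM in controls. The part of the acinar RNA or of the trio in the results was not tested. Values with the 4 libraries left out or with the trio as a covariate stand beside the counts below.

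Per kilobase of exon, which allows genes to be compared, Cd274 was the most abundant member in all 6 groups. In controls it stood at 9.31 ± 1.48 CPM per kb (SD, n = 3), followed by Cd86 at 4.38 ± 0.68, Icosl at 3.59 ± 0.0592, Pdcd1 at 2.25 ± 0.879, Ctla4 at 1.31 ± 0.529, Cd80 at 1.04 ± 0.131, Icos at 0.886 ± 0.167, and Cd28 and Pdcd1lg2 both at 0.724. The upper 3 did not overlap their neighbours in this order, while from Pdcd1 down each overlapped the next. In the full combination Cd274 stood at 14.7 ± 3.22 CPM per kb (SD, n = 4), apart from Cd86 at 5.88, and every further neighbour overlapped. There Pdcd1 (4.66) came after Cd86, then Ctla4 and Icosl (both 4.20), and Cd80 (2.11) came last. These levels divide by all annotated exon bases, so unequal use of isoforms would shift a gene's place.

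**Figure D1:**
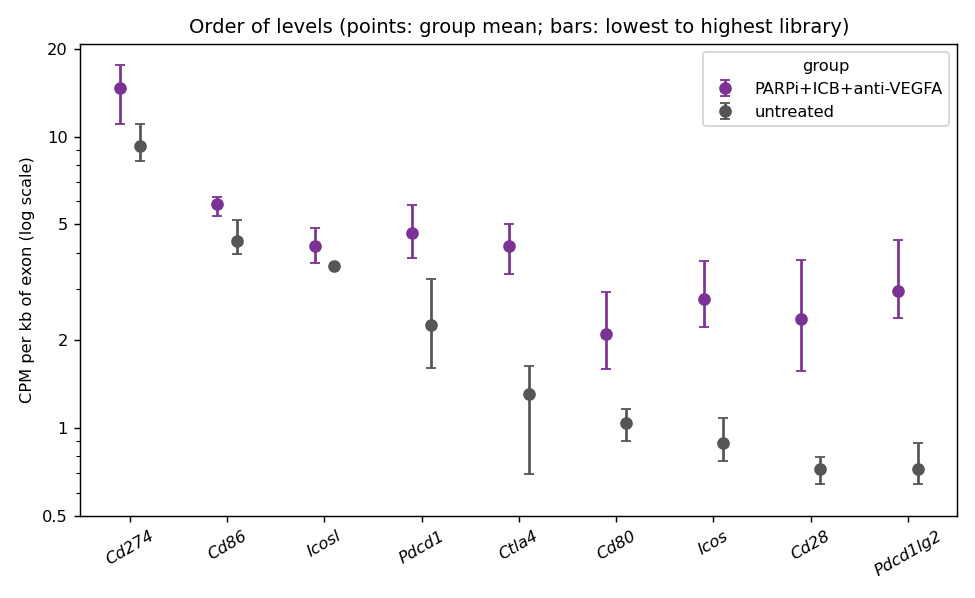
CPM per kilobase of exon (log axis) of the 9 genes in the full combination and in untreated tumours; points are group means and bars run over the libraries. Cd274 lies above every other member in both groups, and the low members of the untreated tumours, Ctla4 to Pdcd1lg2, lie higher in the full combination.

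Against untreated tumours, each member had a positive log2 change in all 5 treated groups, and no member was called lower in any comparison. In the full combination 8 of 9 members rose (edgeR quasi-likelihood test with Benjamini-Hochberg adjustment), where 24.2% of all genes were called and 12.6% were called higher. With PARPi+anti-VEGFA 7 of 9 rose, against 17.8% called and 9.99% called higher of all genes, and with PARPi+ICB 7 of 9 rose, against 16.1% and 9.58%. The median member change was 1.05, 1.06 and 1.02 on the log2 scale in these 3 groups, and the median over all genes was -0.02 in each. With ICB alone no member was called by edgeR (2.20% of all genes were). An unadjusted edgeR p under 0.05 was held by 5 members and by 3200 of 18144 genes. DESeq2 called 4 members, namely Cd28, Icos, Cd274 and Pdcd1lg2, beside 1031 of 18107 genes. With PARPi alone edgeR called no member either (0.0661% of all genes were). There 4 members and 2065 of 18144 genes had an unadjusted p under 0.05, and DESeq2 called Cd80 among 349 of 18107 genes. The limma test on the deposited RPKM values called none in these groups.

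**Figure D2:**
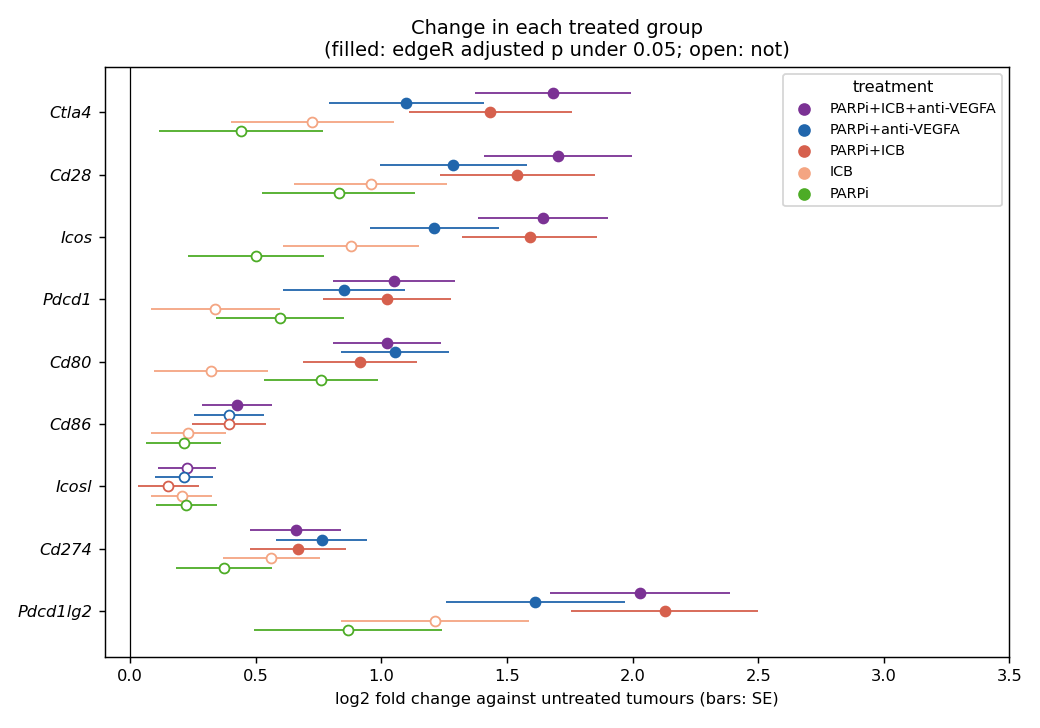
Log2 fold change of each member against untreated tumours in the 5 treated groups, with SE bars; filled points have an adjusted p under 0.05 and open points do not. Pdcd1lg2 reaches 2.13 with PARPi+ICB, while Icosl stays between 0.15 and 0.23 and is open in every group.

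Counting libraries, 8 members lay wholly above the controls in the full combination, all but Cd274, where 14.9% of all genes did so. The count was 7 with PARPi+anti-VEGFA (14.2% of all genes), 6 with PARPi+ICB (17.5%), 6 with ICB (11.7%) and 6 with PARPi (11.2%). Ctla4, Cd28 and Pdcd1lg2 lay above all controls in each of the 5 treated groups.

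The combination calls varied with libraries and with the quality trio. Without PARPi+ICB replicate 3, the calls of Pdcd1, Cd80 and Cd274 in that group were lost and 4 members remained, beside 1337 of 18565 genes. With the trio's level as a covariate, 6 members were called in the full combination (not Cd274 or Cd86), where 2471 of 18144 genes were called. With PARPi+ICB 2 were called (Icos and Pdcd1lg2), beside 630 of 18144 genes. With PARPi+anti-VEGFA 0 were called, and no gene of the 18144 was. The median log2 change of the 9 members with the covariate was 1.04 in the full combination, 1.04 with PARPi+anti-VEGFA and 1.00 with PARPi+ICB, against 1.05, 1.06 and 1.02 without it. Since the trio was lower in nearly all treated libraries, covariate and treatment cannot be told apart there. Without the 4 acinar libraries the counts were 7, 6 and 7 in the full combination, PARPi+anti-VEGFA and PARPi+ICB. Over all genes, 3746, 2454 and 3121 of 18336 were called there.

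Ctla4, the inhibitory receptor that anti-CTLA-4 binds, had 10.3, 7.88, 11.7 and 9.24 CPM in the full combination. It had 3.98, 4.80, 9.44 and 7.97 CPM with PARPi+anti-VEGFA, and 8.37, 5.62 and 10.7 CPM with PARPi+ICB. It had 4.46, 5.02 and 5.63 CPM with ICB and 4.03, 4.56 and 3.81 CPM with PARPi, against 3.71, 3.80 and 1.62 CPM in controls. Every treated library lay above the highest control, narrowly so for the lowest PARPi library, and neighbouring treated groups overlapped. Group means ran from 9.78 ± 1.62 CPM in the full combination (SD, n = 4) over 8.24 ± 2.55 with PARPi+ICB, 6.55 ± 2.59 with PARPi+anti-VEGFA, 5.04 ± 0.584 with ICB and 4.14 ± 0.384 with PARPi, to 3.04 ± 1.23 CPM in controls. The log2 change against controls was 1.68 ± 0.31 in the full combination (3.21-fold, edgeR adjusted p = 0.0011), 1.43 ± 0.32 with PARPi+ICB (adjusted p = 0.00607) and 1.10 ± 0.31 with PARPi+anti-VEGFA (adjusted p = 0.0201). The PARPi+anti-VEGFA call was lost when control replicate 3 was left out (adjusted p = 0.10), and in 6 further alternatives of 15, among them those without replicate 3 or 4 of the treated group (adjusted p = 0.0695 and 0.0534).

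Cd28, the costimulatory receptor, had 11.9, 9.63, 23.1 and 13.1 CPM in the full combination, 11.6, 6.51, 13.1 and 12.1 CPM with PARPi+anti-VEGFA, and 13, 9.05 and 16.7 CPM with PARPi+ICB. It had 6.98, 11.0 and 7.82 CPM with ICB and 8.69, 8.06 and 6.90 CPM with PARPi, against 3.93, 4.50 and 4.86 CPM in controls. All treated libraries exceeded all controls, and replicate 3 of the full combination was the highest of the series. The change was 1.70 ± 0.30 in the full combination (edgeR adjusted p = 0.000675), 1.29 ± 0.29 with PARPi+anti-VEGFA (adjusted p = 0.0062) and 1.54 ± 0.31 with PARPi+ICB (adjusted p = 0.00262).

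Icos, the receptor of ICOS ligand on activated T cells, had 8.34, 7.63, 12.8 and 9.14 CPM in the full combination, 6.25, 5.39, 8.53 and 8.01 CPM with PARPi+anti-VEGFA, and 8.93, 5.65 and 12.9 CPM with PARPi+ICB. It had 5.72, 5.95 and 5.11 CPM with ICB and 5.38, 3.92 and 3.59 CPM with PARPi, against 2.64, 3.69 and 2.78 CPM in controls. A single PARPi library fell within the control range, and every other treated library lay above it. The change was 1.64 ± 0.26 in the full combination (edgeR adjusted p = 0.000331), 1.21 ± 0.26 with PARPi+anti-VEGFA (adjusted p = 0.00408) and 1.59 ± 0.27 with PARPi+ICB (adjusted p = 0.000901). Icos kept its call in the full combination and with PARPi+ICB in all 15 and 14 alternatives.

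Pdcd1, the gene of PD-1, had 9.90, 7.49, 11.2 and 7.42 CPM in the full combination, 7.16, 5.92, 9.19 and 9.14 CPM with PARPi+anti-VEGFA, and 8.72, 6.27 and 11.5 CPM with PARPi+ICB. It had 5.69, 5.91 and 4.89 CPM with ICB and 6.56, 7.07 and 6.07 CPM with PARPi, against 3.65, 6.28 and 3.11 CPM in controls. Control replicate 2 stood above the other controls and all ICB libraries, inside the ranges of PARPi, PARPi+ICB and PARPi+anti-VEGFA, and below the full combination. The change was the smallest of the 4 receptors in the 3 combinations, at 1.05 ± 0.24 in the full combination (edgeR adjusted p = 0.00492), 0.85 ± 0.24 with PARPi+anti-VEGFA (adjusted p = 0.0215) and 1.02 ± 0.26 with PARPi+ICB (adjusted p = 0.0111). The calls with PARPi+anti-VEGFA and PARPi+ICB were lost in 7 of 15 and 5 of 14 alternatives, with edgeR adjusted p up to 0.445 and 0.171. Single libraries that ended them were control replicates 1 and 3 in both, PARPi+anti-VEGFA replicates 3 and 4, and PARPi+ICB replicate 3.

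**Figure D3:**
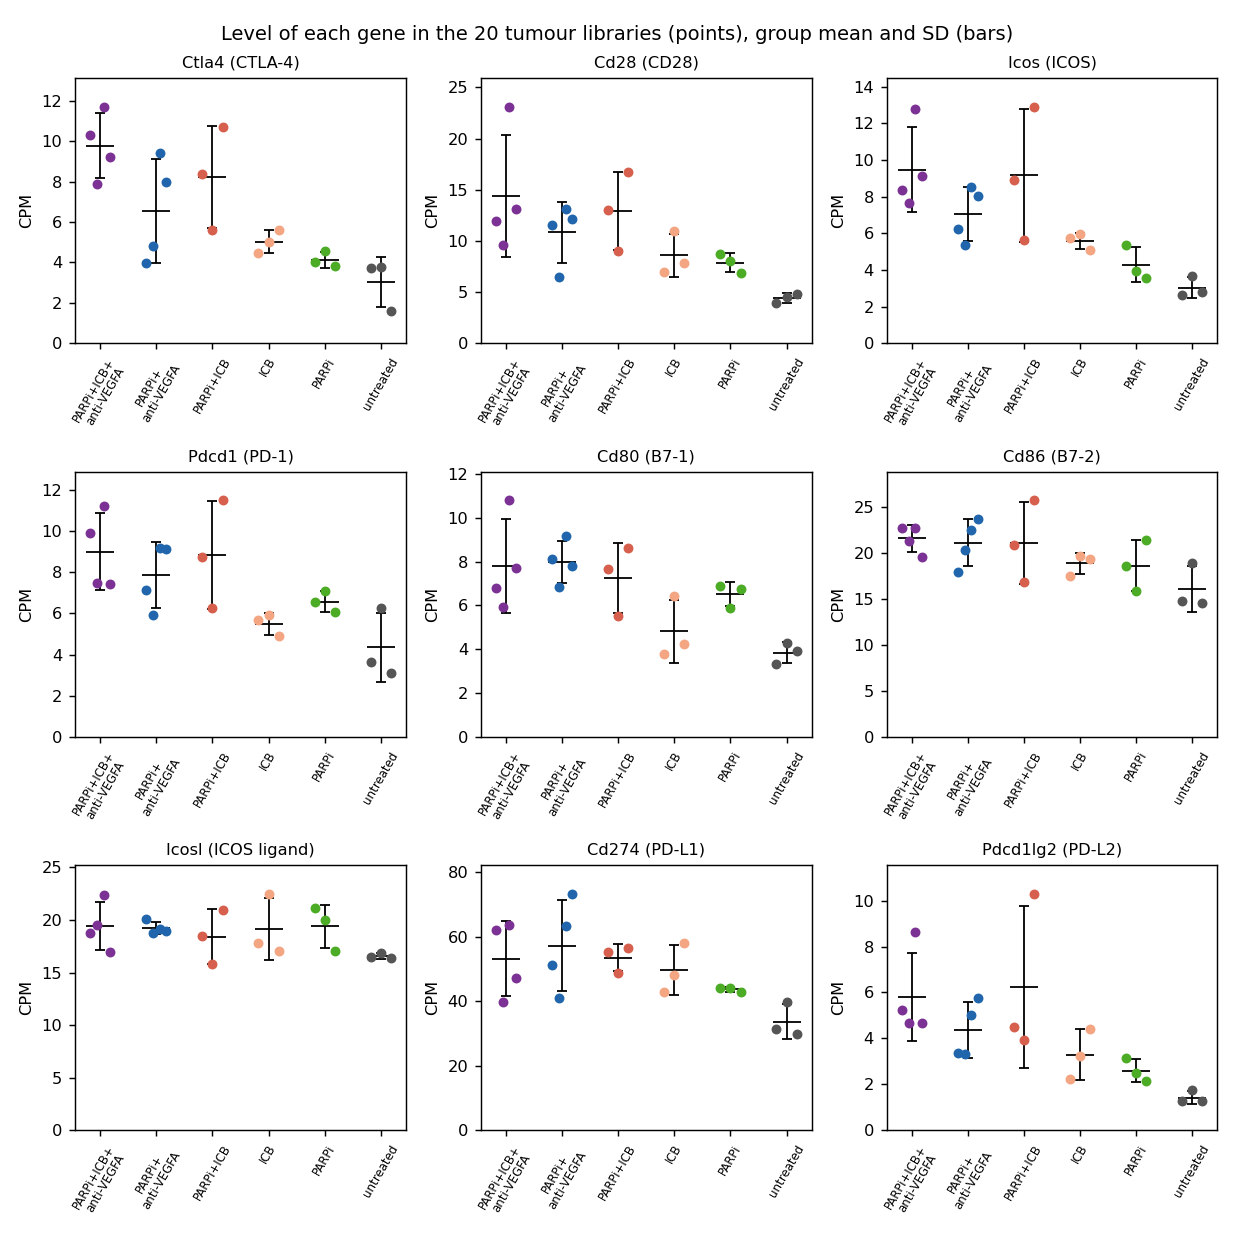
CPM of the 9 genes in each of the 20 libraries (points), with the mean and SD of the group. The receptors, Cd80 and Pdcd1lg2 are lowest in untreated tumours and highest in the combinations, whereas Icosl and Cd86 span a narrow range.

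Among the ligands of CD28 and CTLA-4, Cd80 rose in the 3 combinations, and edgeR called Cd86 in the full combination. Cd80 had 6.78, 5.92, 10.8 and 7.69 CPM in the full combination, 8.10, 6.86, 9.19 and 7.82 CPM with PARPi+anti-VEGFA, and 7.68, 5.50 and 8.60 CPM with PARPi+ICB. It had 3.77, 6.44 and 4.22 CPM with ICB and 6.88, 5.88 and 6.77 CPM with PARPi, against 3.34, 4.3 and 3.90 CPM in controls. All libraries given PARPi lay above the controls, and 2 of the 3 ICB libraries did not. The change was 1.02 ± 0.21 in the full combination (2.03-fold, edgeR adjusted p = 0.00277), 1.06 ± 0.21 with PARPi+anti-VEGFA (adjusted p = 0.00322) and 0.92 ± 0.23 with PARPi+ICB (adjusted p = 0.0104).

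Cd86, the other B7 ligand, had 22.7, 21.3, 22.7 and 19.5 CPM in the full combination, against 14.8, 18.9 and 14.5 CPM in controls. Its change there, 0.43 ± 0.14 (1.34-fold, edgeR adjusted p = 0.0351), passed, and 8 of 15 alternatives lost it with adjusted p up to 0.286, among them those without control replicate 1 or 3 or without replicate 1, 2 or 3 of the full combination. With PARPi+anti-VEGFA it had 17.9, 20.3, 22.5 and 23.7 CPM, and with PARPi+ICB 20.8, 16.8 and 25.7 CPM, both overlapping the controls. The log2 change was 0.40 ± 0.14 with PARPi+anti-VEGFA and 0.39 ± 0.15 with PARPi+ICB (edgeR adjusted p = 0.0589 and 0.0811), and DESeq2 called both (adjusted p = 0.0253 and 0.0404). EdgeR called both without control replicate 2 (adjusted p = 0.0329 and 0.0415), as well as PARPi+anti-VEGFA without its replicate 1 (0.0312) and PARPi+ICB without its replicate 2 (0.0198). Cd86 was thus not shown to differ between the 3 combinations. Icosl, the gene of ICOS ligand, averaged 19.4 ± 2.26 CPM in the full combination (SD, n = 4) and 16.6 ± 0.273 CPM in controls (SD, n = 3). Its log2 change lay between 0.15 and 0.23 in the 5 treated groups and was called in none, with edgeR adjusted p of 0.158 to 0.510.

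The PD-1 ligands differed in level and in the size of their change. Cd274 had 62.2, 39.7, 63.7 and 47.3 CPM in the full combination, 51.2, 41.1, 63.3 and 73.4 CPM with PARPi+anti-VEGFA, and 55.4, 48.8 and 56.6 CPM with PARPi+ICB. It had 42.8, 48.3 and 58.2 CPM with ICB and 44.2, 44.0 and 42.9 CPM with PARPi, against 31.4, 39.9 and 29.9 CPM in controls. Replicate 2 of the full combination fell just below the highest control, and all other treated libraries lay above it. The group means, from 57.2 ± 14.1 CPM with PARPi+anti-VEGFA over 53.6 with PARPi+ICB, 53.2 in the full combination, 49.8 with ICB and 43.7 with PARPi, to 33.7 ± 5.37 CPM in controls, belonged to neighbouring groups whose libraries overlapped, except PARPi and controls. The change was 0.66 ± 0.18 in the full combination (1.58-fold, edgeR adjusted p = 0.0141), 0.76 ± 0.18 with PARPi+anti-VEGFA (adjusted p = 0.00831) and 0.67 ± 0.19 with PARPi+ICB (adjusted p = 0.0240). The PARPi+ICB call was lost in 5 of 14 alternatives (edgeR adjusted p up to 0.289), including those without control replicate 1 or 3 or without PARPi+ICB replicate 1 or 3. The full combination call was lost without control replicate 1 or 3 (adjusted p = 0.0573 and 0.0667).

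Pdcd1lg2 had 5.22, 4.67, 8.64 and 4.69 CPM in the full combination, 3.36, 3.33, 5.03 and 5.74 CPM with PARPi+anti-VEGFA, and 4.51, 3.92 and 10.3 CPM with PARPi+ICB. It had 2.23, 3.22 and 4.43 CPM with ICB and 3.14, 2.51 and 2.13 CPM with PARPi, against 1.26, 1.75 and 1.26 CPM in controls. Every treated library lay above every control, and single libraries of the full combination and of PARPi+ICB, both replicate 3, stood well above the rest of their groups. The change was the largest of the 9 members in these comparisons, at 2.03 ± 0.36 in the full combination (4.08-fold, edgeR adjusted p = 0.000777), 1.61 ± 0.36 with PARPi+anti-VEGFA (3.06-fold, adjusted p = 0.00527) and 2.13 ± 0.37 with PARPi+ICB (4.37-fold, adjusted p = 0.00107).

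Whether ICB changed the members was asked over 3 backgrounds, namely no other agent, PARPi, and PARPi+anti-VEGFA, each with its own pair of groups. As the mean of the 3, Ctla4, Cd28, Icos and Pdcd1lg2 rose with ICB, 4 of 9 members, where 14.1% of all genes were called and 7.26% called higher. The mean log2 change was 0.77 ± 0.18 for Ctla4 (edgeR adjusted p = 0.00882), 0.70 ± 0.17 for Cd28 (adjusted p = 0.0107), 0.80 ± 0.15 for Icos (adjusted p = 0.00258) and 0.96 ± 0.20 for Pdcd1lg2 (1.95-fold, adjusted p = 0.00503). Pdcd1 was at 0.32 ± 0.14 (adjusted p = 0.134) and Cd274 at 0.25 ± 0.11 (adjusted p = 0.122). Cd80 and Cd86 were both at 0.15 and Icosl at 0.05. The receptor calls stood beside T cell RNA that moved with them. All 11 T cell markers rose (list median 0.61), among them Cd3e by 0.72 ± 0.14 and Cd2 by 0.73 ± 0.13. Of 8 regulatory T cell genes 2 were called higher, with a list median of 0.15. Among them Foxp3, the regulatory T cell factor, rose by 0.41 ± 0.12 (edgeR adjusted p = 0.0344). All 4 calls were made with the quality trio as a covariate (1737 of 18144 genes), and 4 without the acinar libraries (1787 of 18336 genes). With limma on the deposited RPKM values 2 were made, those of Ctla4 and Icos (2109 of 17610 genes).

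**Figure D4:**
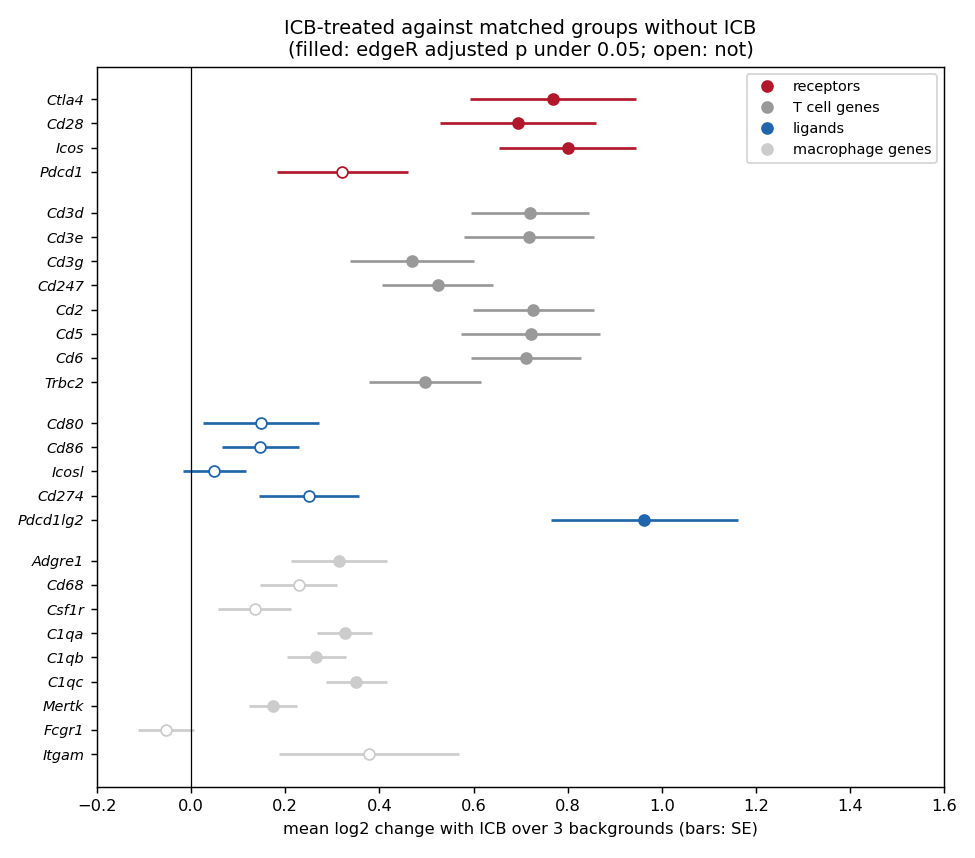
Mean log2 change with ICB over 3 backgrounds, with SE bars, for the 4 receptors, 8 T cell genes, 5 ligands and 9 macrophage genes; filled points have an adjusted p under 0.05. Ctla4, Cd28 and Icos lie among the T cell genes, Pdcd1 at 0.32 lies below them, and Pdcd1lg2 at 0.96 lies right of the other ligands and of the macrophage genes.

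Within single backgrounds no member was called for ICB. Added to PARPi, ICB gave Icos 1.09 ± 0.26 (edgeR adjusted p = 0.0508), Ctla4 0.99 ± 0.32 and Pdcd1lg2 1.26 ± 0.36 (adjusted p = 0.125 and 0.0885), with 1.26% of all genes called. There 4 members and 2962 of 18144 genes had an unadjusted p under 0.05. DESeq2 called 3 members beside 812 of 18107 genes, and limma called no member. Wholly above the PARPi libraries lay 5 members (12.3% of all genes did). Added to PARPi+anti-VEGFA, ICB left all 9 between -0.10 and 0.58, with 0.0882% of all genes called. There 1 member and 2262 of 18144 genes had an unadjusted p under 0.05. No member was called by DESeq2, which called 251 of 18107 genes, or by limma. Ctla4 had the 0.58 ± 0.27 (edgeR adjusted p = 0.388), and no member's libraries were apart (3.04% of all genes were). The 3 backgrounds were not shown to differ: the interaction with PARPi and that with anti-VEGFA under PARPi called no member by edgeR (adjusted p of at least 0.779), DESeq2 or limma, no member had an unadjusted p under 0.05, and 0.00% of all genes were called.

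The receptors were next set against T cell RNA, as the difference in log2 CPM between the receptor and the mean of 8 T cell genes in the same library. Pdcd1 lay lower relative to T cell genes with ICB, by -0.30 on average (0.81-fold, exact stratified permutation test, two-sided p = 0.00157, adjusted p = 0.0204 over 39 tests). It stood at -0.39, -0.81, -0.65 and -0.58 in the full combination and -0.49, -0.40, -0.35 and -0.31 with PARPi+anti-VEGFA. It stood at -0.39, -0.57 and -0.40 with PARPi+ICB and -0.28, 0.15 and -0.04 with PARPi, and at -0.19, -0.40 and -0.61 with ICB and -0.16, 0.18 and -0.33 in controls. The groups with and without ICB overlapped in 2 of the 3 backgrounds and were apart under PARPi. The differences by background were -0.30 without another agent, -0.40 under PARPi and -0.22 under PARPi+anti-VEGFA. The adjusted p passed 0.05 without ICB replicate 3 and without the 4 acinar libraries, reaching 0.0975. The other receptors did not pass: Ctla4 differed by 0.17, Icos by 0.14 and Cd28 by 0.03 (exact permutation adjusted p = 0.639, 0.346 and 0.858), which does not show that they were equal. On the deposited log2 RPKM scale all 3 lay lower relative to T cell genes with ICB and passed. Ctla4 was at -0.121, Icos at -0.086 and Cd28 at -0.158 (exact permutation adjusted p = 0.0195, 0.0195 and 0.00836). That scale adds 1 to each RPKM, which compresses changes of low genes. The median member change for the mean ICB effect was 0.094 there and 0.321 by edgeR. A difference between genes of unlike level can arise from such a scale alone, so these 3 values do not show lower receptor RNA relative to T cell RNA.

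The ligands were set against 9 macrophage genes in the same way, of which 5 rose with ICB, C1qa by 0.33 and Adgre1 by 0.32 on the log2 scale. Pdcd1lg2 lay higher relative to them with ICB by 0.67 (1.59-fold, exact permutation p = 0.00121, adjusted p = 0.0204), with 0.93, 0.76 and 0.31 in the 3 backgrounds, but on the deposited log2 RPKM scale, where its low values are compressed, it was -0.11 and passed in the opposite direction (exact permutation adjusted p = 0.023). The mean was -4.37 ± 0.36 in the full combination and -4.69 ± 0.33 with PARPi+anti-VEGFA (SD, n = 4 each). It was -4.28 ± 0.40 with PARPi+ICB and -5.04 ± 0.35 with PARPi, and -4.74 ± 0.39 with ICB and -5.66 ± 0.16 in controls (SD, n = 3 each). With PARPi, Pdcd1lg2 relative to these genes differed by 0.54 (1.45-fold), with 0.62 and 0.46 by background. That difference did not pass (exact permutation p = 0.015, adjusted p = 0.0836). With ICB, Cd274, Cd80, Cd86 and Icosl differed by 0.03, -0.10, -0.07 and -0.18, none passing. PD-L2 RNA is also made by dendritic cells, and beside this result the 11 dendritic cell genes summed to 260 to 300 CPM in the full combination, 276 to 332 with PARPi+anti-VEGFA, 242 to 305 with PARPi+ICB, 230 to 264 with ICB, 261 to 294 with PARPi and 227 to 233 in controls. As the mean ICB effect, 7 of those 11 had a positive log2 change, with a list median of 0.06, and none was called higher. The chemokine gene Ccl22 was the 1 called lower, by 0.40 ± 0.10 (edgeR adjusted p = 0.0147). The part of dendritic cells in the Pdcd1lg2 difference was not tested further.

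On the log2 CPM scale, the gap between the RNA levels of PD-1's ligands was smaller with ICB. Cd274 exceeded Pdcd1lg2 by 3.56, 3.07, 2.87 and 3.32 on the log2 CPM scale in the full combination and by 3.90, 3.60, 3.64 and 3.66 with PARPi+anti-VEGFA. The gap was 3.60, 3.62 and 2.46 with PARPi+ICB and 3.79, 4.10 and 4.29 with PARPi, and 4.22, 3.88 and 3.70 with ICB and 4.57, 4.46 and 4.50 in controls. In all 3 backgrounds every ICB library had a smaller gap than every library without ICB. The mean difference was -0.64 (0.643-fold), with -0.58, -0.83 and -0.50 by background, and its exact permutation p of 7.14e-05 is the smallest that the 28000 arrangements allow (adjusted p = 0.00279). With PARPi the difference was -0.58 (0.669-fold), again at the smallest possible p of 0.005 among 400 arrangements (exact permutation adjusted p = 0.039), and 9 of 17 alternatives lost this, including those without any 1 control library, any 1 ICB library or PARPi+ICB replicate 3, where the smallest possible p is also larger. On the deposited log2 RPKM scale both differences turned to 0.12. That scale adds 1 to each RPKM, which compresses a low gene such as Pdcd1lg2 more than Cd274. The raw level of Cd274 per kilobase remained above that of Pdcd1lg2 in every group.

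Cd80 relative to Cd86 was the other measure that passed for PARPi. The difference in log2 CPM was -1.43, -1.60 and -1.57 with PARPi+ICB and -2.20, -1.60 and -2.17 with ICB, and -1.43, -1.42 and -1.65 with PARPi and -2.12, -2.12 and -1.87 in controls. The PARPi and control libraries were apart, and with ICB the highest ICB library met the lowest PARPi+ICB library. The mean difference was 0.50 (1.41-fold, exact permutation p = 0.005, the smallest possible, adjusted p = 0.039), and 6 of 17 alternatives lost it, including those without ICB replicate 3 or any 1 PARPi+ICB library. With anti-VEGFA, under PARPi or PARPi+ICB, none of the 13 measures passed; Pdcd1 relative to T cell genes came nearest, at -0.25 (exact permutation p = 0.0122, adjusted p = 0.0796).

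**Figure D5:**
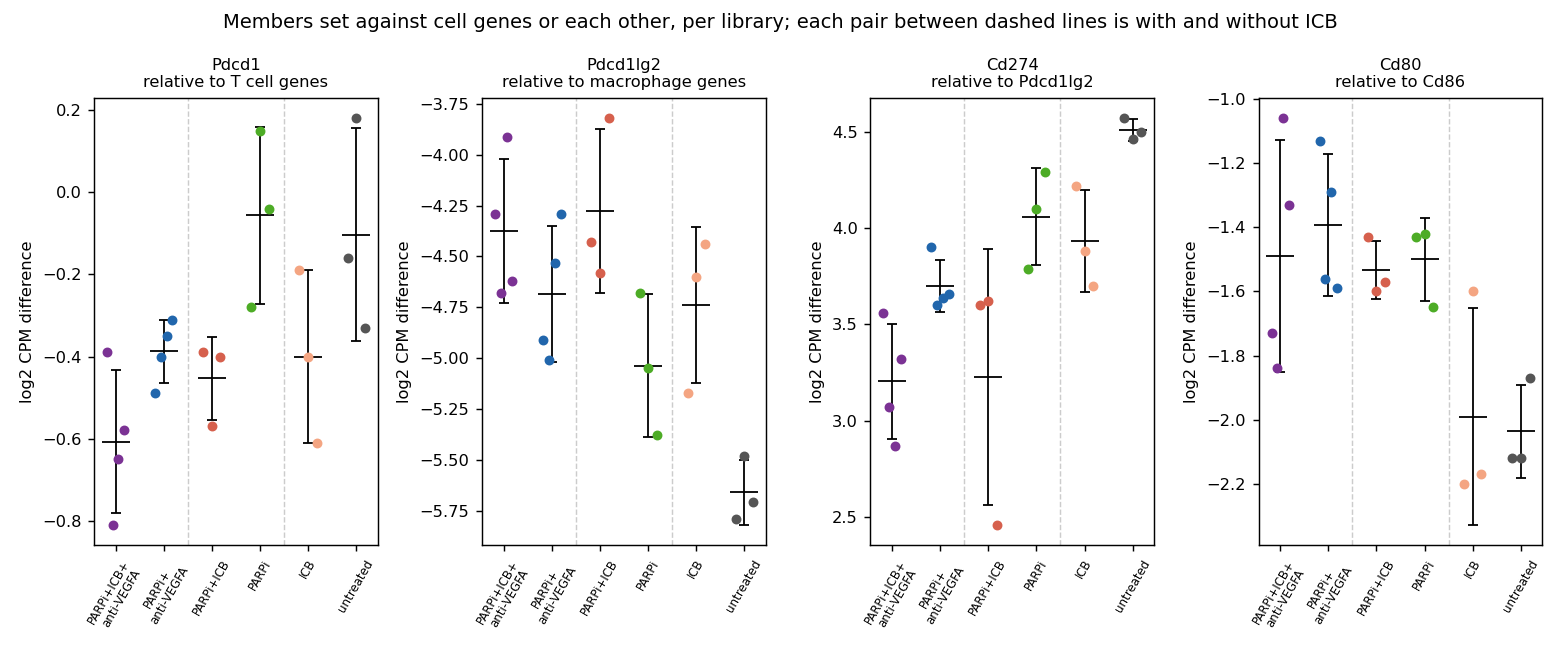
Difference in log2 CPM per library for Pdcd1 against 8 T cell genes, Pdcd1lg2 against 9 macrophage genes, Cd274 against Pdcd1lg2 and Cd80 against Cd86, with group mean and SD; dashed lines part the 3 backgrounds. In each background Cd274 relative to Pdcd1lg2 is lower in every ICB library on this scale (the mean difference is 0.12 on the deposited log2 RPKM scale), and Cd80 relative to Cd86 lies near -1.5 in the groups given PARPi and near -2.0 with ICB alone and in untreated tumours.

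Adding PARPi to ICB called no member by edgeR, with 0.871% of all genes called. An unadjusted p under 0.05 was held by 5 members and by 2972 of 18144 genes. DESeq2, which called 824 of 18107 genes, and limma called no member. Pdcd1lg2 was at 0.92 ± 0.35 and Icos at 0.71 ± 0.26 (edgeR adjusted p = 0.195 and 0.177). Only Pdcd1 lay above all ICB libraries, which 10.1% of all genes did. Adding anti-VEGFA to PARPi also called none by edgeR (0.573% of all genes). There 4 members and 2807 of 18144 genes had an unadjusted p under 0.05. DESeq2, which called 649 of 18107 genes, and limma called no member. Icos had 0.71 ± 0.25 and Pdcd1lg2 0.74 ± 0.34 (edgeR adjusted p = 0.183 and 0.296), and these 2 lay above all PARPi libraries, as did 7.51% of all genes. Adding anti-VEGFA to PARPi+ICB left the 9 members between -0.10 and 0.25 in log2, with none called by edgeR, DESeq2 or limma, none at an unadjusted p under 0.05, 0.00% of all genes called and none apart (1.91% of all genes were).

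Other genes of the pathway were taken from lists. Over all genes, 12.6% were called higher in the full combination, 9.99% with PARPi+anti-VEGFA, 9.58% with PARPi+ICB and 7.26% for the mean ICB effect. In the full combination all 11 T cell markers rose, with a median log2 change of 1.47 (the median over all genes was -0.02), led by Cd2 at 1.93 ± 0.23 and Cd3d at 1.75 ± 0.22 (edgeR adjusted p = 5.1e-05 and 7.02e-05). Their summed level was 143 to 223 CPM in the full combination, 106 to 168 with PARPi+anti-VEGFA, 116 to 193 with PARPi+ICB, 90.3 to 113 with ICB and 85.3 to 106 with PARPi, against 55.2 to 75.6 CPM in controls, and no marker was at 0. Of 20 genes that signal from CD28, CTLA-4 or PD-1, 15 rose and 1 fell in the full combination, 15 rose with PARPi+anti-VEGFA and 14 with PARPi+ICB. The adaptor Lat rose by 1.81 ± 0.19 and the kinases Lck by 1.51 ± 0.18 and Zap70 by 1.68 ± 0.21 in the full combination (edgeR adjusted p = 3.25e-05, 5.15e-05 and 6.67e-05). With ICB as the mean of 3 backgrounds, 12 rose and 1 fell, led by Prkcq, a kinase of CD28 signalling, at 1.11 ± 0.14 (edgeR adjusted p = 0.000165). Of 8 regulatory T cell genes 4 rose in the full combination, among them Foxp3, which averaged 11.0 ± 3.34 CPM there (SD, n = 4) and 3.97 ± 1.05 CPM in controls (SD, n = 3), a change of 1.47 ± 0.22 (edgeR adjusted p = 0.000218).

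The interferon gamma pathway that induces Cd274 was described by 15 genes. Of these, 6 rose and 1 fell in the full combination, 6 rose with PARPi+anti-VEGFA and 3 with PARPi+ICB, and the list median was 0.33, 0.30 and 0.22 on the log2 scale. Over all genes, 24.2%, 17.8% and 16.1% were called in the same 3 comparisons, and the count with PARPi+ICB is near that share. Irf1, a factor that drives Cd274 transcription, rose by 0.28 ± 0.09 in the full combination (edgeR adjusted p = 0.0317) and Irf2 by 0.39 ± 0.08 (adjusted p = 0.00298). Cxcl9, a T cell chemokine, rose by 0.72 ± 0.22 (edgeR adjusted p = 0.0253). Of 11 regulators of the axis, 4 rose and 3 fell: the T cell factors Nfatc2 and Batf rose by 0.88 ± 0.15 and 1.26 ± 0.24, while Cmtm4, which stabilises PD-L1 protein in human cells, fell by 0.43, and its relative Cmtm6 was at 0.07 ± 0.06 (edgeR adjusted p = 0.398). Among 7 tested relatives of the B7 and CD28 family, Vsir, the gene of VISTA, rose by 0.95 ± 0.14 and Btla by 0.96 ± 0.20, and Vtcn1, the gene of B7-H4, fell by 1.30 with Ildr2 by 0.48 (edgeR adjusted p = 0.000236, 0.00232, 0.000325 and 0.00374), 2 higher and 3 lower in all.

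Antigen-presenting cell RNA moved as well. In the full combination, where 24.2% of all genes were called and 12.6% called higher, 7 of 9 macrophage markers rose. Among these were C1qa at 0.75 ± 0.10 and Cd68 at 0.78 ± 0.14 (edgeR adjusted p = 0.000108 and 0.000909). They summed to 1698 to 2102 CPM in the full combination, 1578 to 1827 with PARPi+anti-VEGFA, 1510 to 2283 with PARPi+ICB, 1381 to 1571 with ICB and 1361 to 1369 with PARPi, against 1110 to 1248 CPM in controls. Of 11 dendritic cell genes 7 rose, with Flt3 at 1.28 ± 0.24, and of 7 B cell genes 5 rose, with Cd79a at 1.87 ± 0.34 (edgeR adjusted p = 0.00112 and 0.000953). B cell genes summed to 83.2 to 185 CPM in the full combination, against 38.5 to 44.8 CPM in controls, and B cells too can express Cd80, Cd86 and Icosl. The part of these cells in the ligand changes was not tested.

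The genes most like each member over the 20 libraries were found by the root mean square (RMS) difference of centred log2 CPM among 12984 genes. Icos was closest to Cd3e (0.188), Lat (0.201) and Cd3g (0.210), and Ctla4 to Nkg7 (0.268), Cd27 (0.275) and Cd8b1 (0.283), genes of T and cytotoxic cells. Cd28 was closest to Atp2a3 (0.155), Tmem154 and Cyfip2, and Pdcd1 to Pou2f2 (0.170), Ikzf1 and Trpm2. Among the ligands, Cd80 was closest to Cd69 (0.151) and to Btla, and Cd86 to Mpeg1 (0.113), a macrophage gene, Vrk1 and Tmem229b. Icosl was closest to Irf5 (0.101), Irf2 and Ifnar2, and Cd274 to Nlrc5 (0.119), the activator of MHC class I genes, Fgl2 and Xist. Pdcd1lg2 was closest to the T cell adhesion gene Cd2 (0.219), the integrin gene Itgb7 (0.238) and the chemokine receptor gene Ccr4 (0.241). The SD of a member's own log2 CPM, the yardstick for these values, was 0.792 for Pdcd1lg2, 0.701 for Ctla4, 0.336 for Cd274 and the smallest of the 9 for Icosl, so the small RMS of Icosl follows from its narrow range. The likeness shares libraries and groups and carries no test.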

How the data were processed

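RNA-seq of 20 tumours was analysed. Per the submitters' processing notes the tools STAR and HTSeq and the build GRCm38 were used; versions and strand setting are not given in the sources used here. The deposited counts are raw reads per Ensembl gene, as whole numbers. The deposited second table holds log2 values of RPKM with 1 added; per the file headers it has 1 column per library. Worked back from the counts, its length lay within 5% of the whole gene span, introns included, for 99.5% of 14070 genes. It was used as an alternative only.

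Tests ran in R 4.3.3 with edgeR 4.0.16: filterByExpr (minimum count 10, minimum total 15), TMM factors (0.958 to 1.03), 1 coefficient per group over all 20 libraries, quasi-likelihood F tests and Benjamini-Hochberg adjustment over 18144 genes per contrast, 13 contrasts in all. SE is the absolute log2 change over the square root of F. Log2 CPM used a prior count of 2, and lengths for CPM per kb were merged exons. Measures set against other genes were compared by exact two-sided permutation within backgrounds, adjusted over 39 tests. Comparisons with the same control libraries are not independent. DESeq2 1.42.0 and limma 3.58.1 were alternatives, with other scalings, no filter, a replicate block, the quality trio as a covariate, and libraries left out. Scripts were tested on simulated data. Symbols and positions came from GENCODE M21 (55141 of 55406 identifiers matched). The labels call each library a replicate mouse, give no batch, and do not say whether 1 tumour or several were sampled per mouse.

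The 9 members and the gene lists were chosen with earlier results of these data known. Named list genes are up to 4 with the smallest p per list and comparison, plus Foxp3, Cd3e, Irf1, Cmtm6 and Adgre1, and the 3 genes most like each member; some genes that the rule names are not reported here. Members at 38 or more counts in every library are limited by the 3 to 4 animals per group more than by counting.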

Additional observations from a re-analysis of the deposited data

Results flagged for a closer look

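Among 44 groups of 4 libraries examined, 2 held a library far from the others, where chance alone gives about 1 in 20. Pdcd1lg2 in the full combination had 8.64 CPM in replicate 3, against 4.67 to 5.22 CPM in the other libraries, a gap of 0.861 of the group's range. The log2 CPM of Ctla4 relative to Cd28 with PARPi+anti-VEGFA was -1.52 in replicate 1, against -0.60 to -0.43 in the others, a gap of 0.844 of the range. That library is 1 of the 4 with pancreatic acinar RNA, at a mean log2 CPM of 6.64 over the acinar genes, as is replicate 4 of the group at 6.68, which was not set apart. The part of this RNA was not tested.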

How the results depend on the processing

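With 3 or 4 mice per group, counts of called members depended on the processing in several comparisons. With the quality trio as a covariate 2 members were called with PARPi+ICB (630 of 18144 genes) and 0 with PARPi+anti-VEGFA (no gene). The same edgeR test without the covariate called 7 each. Cd86 with ICB alone then turned to -0.077. DESeq2 called 1 member with PARPi, 4 with ICB and 3 for ICB added to PARPi (0 each by edgeR). Over all 18107 genes that DESeq2 tested, it called 349, 1031 and 812 in these comparisons. With the compared groups fitted alone 1 was called with PARPi (171 of 16790 genes), and with no filter 1 for ICB added to PARPi (307 of 32334 genes). Limma on the deposited log2 RPKM called 4 with PARPi+anti-VEGFA and 2 for the mean ICB effect, beside 2722 and 2109 of 17610 genes. Leaving out 1 library in turn gave 6 to 8 in the full combination, 5 to 8 with PARPi+anti-VEGFA, 4 to 8 with PARPi+ICB, 0 to 2 for ICB added to PARPi (2 without PARPi+ICB replicate 2) and 4 to 5 for the mean ICB effect.

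The replicate numbers share no stated source, and same-numbered libraries did not deviate together (mean r of 0.01 over 46 pairs, 0.00 over 120 pairs of different numbers). With replicate number as a block, 7 members were called with PARPi+ICB, 6 with PARPi+anti-VEGFA, 7 in the full combination and 4 for the mean ICB effect, and 0 in the other 9 comparisons. Over all 18144 genes, 2865, 2906, 4142 and 2393 were called in those 4 comparisons.

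Of the relative measures, the deposited log2 RPKM passed 8 for ICB (3 in log2 CPM over all 20 libraries), 5 for PARPi (2) and 2 for anti-VEGFA (0). It adds 1 to each RPKM value, which compresses low genes by construction, Pdcd1lg2 more than Cd274. There the ICB difference was 0.12 for Cd274 relative to Pdcd1lg2, -0.11 for Pdcd1lg2 relative to macrophage genes, and -0.121, -0.158 and -0.086 for Ctla4, Cd28 and Icos relative to T cell genes. The PARPi difference was 0.12 for Cd274 relative to Pdcd1lg2 and -0.15 for Pdcd1lg2 relative to macrophage genes, against -0.58 and 0.54 in log2 CPM. The 3 receptors passed in this other direction (exact permutation adjusted p of 0.00836 to 0.0195), as did Pdcd1lg2 relative to macrophage genes with ICB (0.023) and PARPi (0.0279), while Cd274 relative to Pdcd1lg2 did not (0.2 and 0.146). With Cd3e and Csf1r alone as references, 1 measure passed for anti-VEGFA and Cd28 relative to Cd3e was -0.047 with ICB. Without the acinar libraries 0 passed for PARPi. Leaving out 1 library gave 0 to 2 for PARPi (0 without ICB replicate 3 or PARPi+ICB replicate 3) and 0 to 1 for anti-VEGFA, and moved Cd28 relative to T cell genes between -0.016 and 0.083.

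The count over all genes ran, over all alternatives, from 2471 to 4737 in the full combination (4384), 0 to 3767 with PARPi+anti-VEGFA (3228), 630 to 3444 with PARPi+ICB (2922), 0 to 1031 with ICB (400), 0 to 349 with PARPi (12), 26 to 812 for ICB added to PARPi (229), 0 to 251 for ICB added to PARPi+anti-VEGFA (16), 0 to 824 for PARPi added to ICB (158), 0 to 649 for anti-VEGFA added to PARPi (104) and 1528 to 3152 for the mean ICB effect (2567). The cause of these shifts was not tested.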
